A study of Arabidopsis thaliana with 20 samples.

Results

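bZIP19, bZIP44, WRKY20 and IAA18 encode 4 nuclear regulators of transcription, and they were followed here as transcripts in cultured Arabidopsis cells at 22 °C and at 4 °C. The members are the probe sets whose gene symbol in the platform table is one of these names. Each gene had 1 such probe set, so they are 4 of 22810 probe sets and 4 of 13355 genes with a probe set of their own. All 4 passed the filter on low values that left 6961 genes for the tests. Positions are those of TAIR10.1: bZIP19 (AT4G35040) lies on chromosome 4 from 16680209 to 16682881, WRKY20 (AT4G26640) on chromosome 4 from 13437005 to 13441884, bZIP44 (AT1G75390) on chromosome 1 from 28291698 to 28293008, and IAA18 (AT1G51950) on chromosome 1 from 19305081 to 19307518.

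T87 is a suspension culture of Arabidopsis cells of the Columbia accession (Col-0), 1 cell line without the organs of a plant. Cells stayed at 22 °C in light of 80 µmol per square metre and second, or stood at 4 °C in dimmer light of 40 µmol for 6, 12, 24 or 36 h, and then received cordycepin, which resembles adenosine and stops RNA chains from growing. Cordycepin lasted 0, 0.5, 2 or 4 h at 22 °C and 0, 4, 8 or 12 h in every cold series, with 1 Affymetrix array for each of the 20 conditions and no replicates. Cold and dim light cannot be told apart in this design, nor can time at 4 °C and time in culture. The study asks how the amount and the stability of transcripts change over the course of cold, and a slope after cordycepin is its measure of stability. Array means of intensity lay between 300.2 and 311.8. The processing notes name RMA, a method that scales arrays to one another, so a slope compares a transcript with the rest of its array and does not give the loss of mRNA in absolute terms.

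Transcription factors of the bZIP class bind DNA as dimers through a basic region and pair through a leucine zipper. bZIP19 belongs to a small subgroup that switches on zinc uptake genes when zinc is scarce, and bZIP44 belongs to the S1 group, whose members pair with group C bZIP proteins and adjust metabolism to the supply of sugar. WRKY20 is a WRKY factor of group I, a group that carries a pair of WRKY domains and binds W-box elements. IAA18 is an Aux/IAA repressor, which blocks auxin response factors until auxin brings it to its receptor for breakdown. How fast such an mRNA can change in amount depends on its turnover, so both level and slope are given for each.

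Before cordycepin, bZIP44 was the member whose level differed most from 22 °C. Its intensity was 95.7 at 22 °C and 220.1, 405, 355 and 304 after 6, 12, 24 and 36 h at 4 °C. Every cold value lay above the 22 °C value, the highest stood at 12 h, and the later 2 were lower than that one. Taken 1 array against 1 and without a test, the level was 2.30-fold that at 22 °C after 6 h, 4.23-fold after 12 h, 3.71-fold after 24 h and 3.17-fold after 36 h. The difference stood between the 96.6 and 97.2 percentiles of all genes at each duration. Of the 4 members 1, bZIP44, also had all 16 cold arrays, with or without cordycepin, above all 4 arrays at 22 °C, with a lowest, median and highest intensity of 220.1, 304 and 405 at 4 °C, against 69.7 to 110.1 at 22 °C. The same held for 7.20% of all genes tested.

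bZIP19 had an intensity of 233.9 at 22 °C and 213.8, 246.8, 321 and 315 after 6, 12, 24 and 36 h of cold. The 6 h value lay below the 22 °C value and the 24 and 36 h values above it, at 1.37-fold and 1.35-fold. WRKY20 had 197.8 at 22 °C and 192.5, 191.6, 218.7 and 216.7 in the cold, which is between 0.969-fold and 1.11-fold the 22 °C level. IAA18 was the dimmest member, with 48.4 at 22 °C and 41.2, 55.8, 86.0 and 78.3 in the cold. It was below its 22 °C level at 6 h and 1.78-fold above it at 24 h. IAA18 reached the table median of 61.4 on 13 of the 20 arrays, and of the 4 arrays at 22 °C only the one at 4 h of cordycepin did so. The filter asked for 2 such arrays, so IAA18 passed it only through cold arrays, mostly those of the 12, 24 and 36 h series. Its tests of level below therefore use the same high values that brought it into the tested set. Before cordycepin at 22 °C it stood at the 7.07 percentile of the genes tested.

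**Figure D1:**
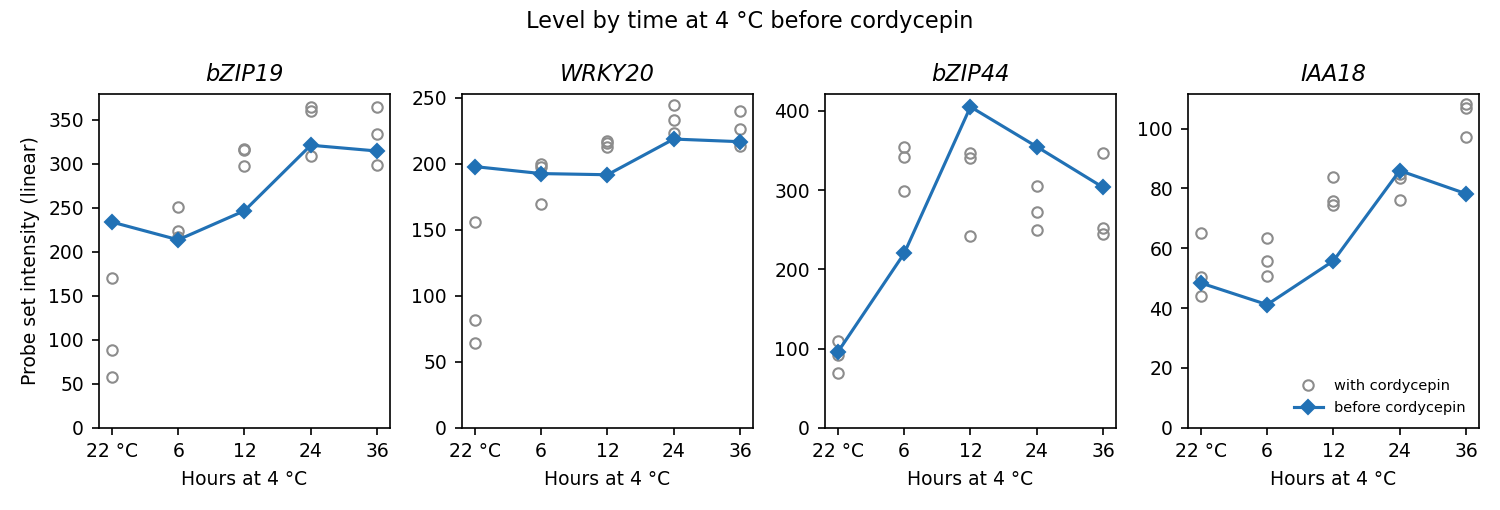
Probe set intensity on a linear scale (y axis) of the 4 members by series (x axis: 22 °C, then hours at 4 °C before cordycepin). Diamonds joined by a line are the arrays before cordycepin and open circles the 3 arrays of the same series with cordycepin. bZIP44 is at 95.7 at 22 °C and at 220.1 to 405 in the cold, while WRKY20 stays between 191.6 and 218.7 on all 5 arrays before cordycepin.

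With the 4 cold arrays set against the single 22 °C array, 0 of the 4 members passed (limma, two-sided, Benjamini-Hochberg over 6961 genes), where 0.101% of all genes were called higher. At an unadjusted p under 0.05 the count was 1 of 4, bZIP44, against 617 of all 6961 genes. bZIP44 averaged log2 8.29 ± 0.38 in the cold (SD, n = 4) and 6.58 at 22 °C, a difference of 1.71 ± 0.35 (SE; limma adjusted p = 0.286; 95% interval 0.84 to 2.58). In this test the change from 6 to 36 h counts as error. Dropping each cold value in turn gave bZIP44 differences of 1.88 (6 h dropped), 1.59 (12 h), 1.65 (24 h) and 1.72 (36 h). bZIP44 passed only with its 6 h value dropped, the lowest of the 4, and in none of the other fits. Without the 6 h array 1.11% of all genes were called higher. Each of these fits still rests on the single 22 °C array. IAA18 had a log2 difference of 0.37 ± 0.44, bZIP19 of 0.21 ± 0.29 and WRKY20 of 0.05 ± 0.20. The 95% interval for WRKY20 ran from −0.44 to 0.54. When the level was taken from the intercepts of the lines through all 20 arrays, bZIP44 (1.78), IAA18 (0.53) and bZIP19 (0.39) passed and WRKY20 did not, against 25.2% of all genes called higher.

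Within the cold, 3 members passed for a difference among durations and were higher in the 36 h series than in the 6 h series. bZIP44 did not pass. The 16 cold arrays were fitted with cold duration and cordycepin time as additive terms, and the mean of a duration over its 4 cordycepin times was compared. IAA18 was 0.89 ± 0.12 higher on the log2 scale in the 36 h series than in the 6 h series, a factor of 1.86 (SE; limma F test over durations, adjusted p = 2.75e-04). bZIP19 was 0.53 ± 0.08 higher, a factor of 1.45 (adjusted p = 3.57e-04). WRKY20 was 0.24 ± 0.06 higher, a factor of 1.18 (adjusted p = 0.0102). bZIP44 differed by −0.07 ± 0.17 between the same series (adjusted p = 0.673; 95% interval −0.43 to 0.28).

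The steps of these 3 differ. From 6 to 12 h IAA18 gained 0.46 ± 0.12 and bZIP19 0.37 ± 0.08, and both steps passed (limma adjusted p = 0.0120 for IAA18 and 0.00722 for bZIP19). No later step passed for either gene: from 24 to 36 h bZIP19 had −0.05 ± 0.08 and IAA18 0.23 ± 0.12. WRKY20 differed by 0.14 between 6 and 12 h and by 0.13 between 12 and 24 h, neither past the threshold. The count of 3 in 4 has to be read against the 56.2% of all genes that the same F test called. Its error is the scatter among arrays of 1 series, which may share a culture, and on the 4 cold arrays before cordycepin alone a linear trend with cold duration passed in limma for 0 of the 4 and for 0% of all genes. At an unadjusted p under 0.05 it held for 1 of the 4, against 450 of all 6961 genes.

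At 22 °C, the bZIP19 and WRKY20 transcripts fell steeply after cordycepin. bZIP19 went through intensities of 233.9, 170.3, 88.2 and 58.0 at 0, 0.5, 2 and 4 h, so that 24.8% of the starting value was left at 4 h. WRKY20 went through 197.8, 156.1, 81.5 and 64.1, with 32.4% left. Each of the 3 later arrays was lower than the one before it in both genes, while the median gene had a log2 change of −0.21 over the same 4 h. The median intensity of the whole array was also lower at 4 h, 50.3, than at 0 h, 64.4, and lay between 60.02 and 68.6 on the cold arrays. The loss per h was smaller in the later intervals. bZIP19 lost 0.92 log2 units per h up to 0.5 h, 0.63 from 0.5 to 2 h and 0.30 from 2 to 4 h. WRKY20 lost 0.68, 0.62 and 0.17. Each of these rates rests on 2 single arrays. The 4 h values, 58.0 and 64.1, lay near the table median of 61.4 that served as the cut for low values. Why the loss was smaller later was not tested.

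**Figure D2:**
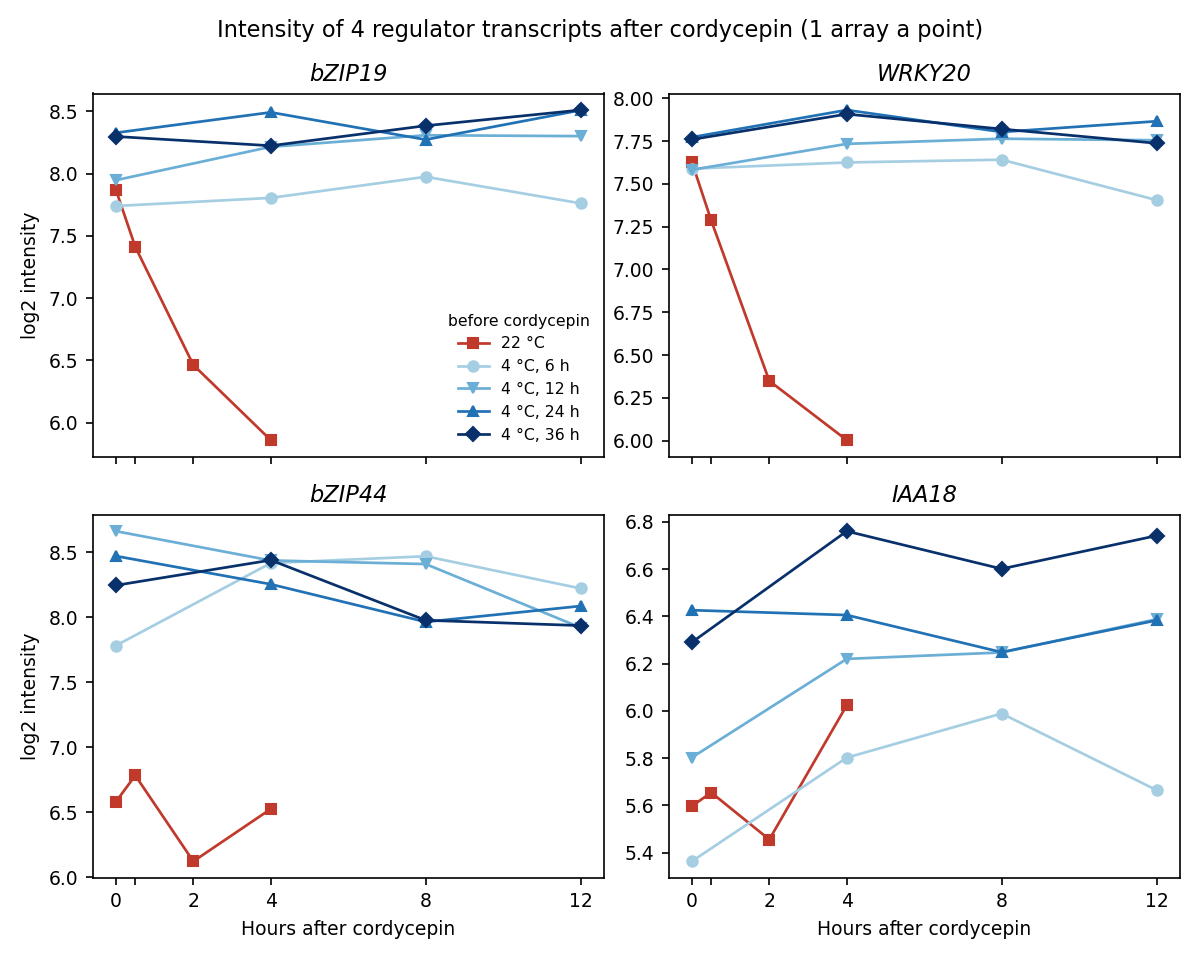
log2 intensity (y axis, a scale of its own in each panel) of each member against hours after cordycepin (x axis), 1 array a point, with 1 line for each of the 5 series. The 22 °C lines of bZIP19 and WRKY20 drop to 5.86 and 6.00 at 4 h, while their cold lines stay between 7.41 and 8.51 over 12 h.

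A straight line through the 22 °C arrays had a slope of −0.49 ± 0.05 log2 per h for bZIP19 (SE; limma adjusted p = 1.20e-06) and of −0.41 ± 0.05 for WRKY20 (adjusted p = 6.37e-06). Among all genes these slopes stood at the 2.93 percentile for bZIP19 and the 6.15 percentile for WRKY20. Without the array at 4 h the slopes were −0.69 for bZIP19 and −0.64 for WRKY20, and both passed. bZIP44 and IAA18 did not pass. With 2 of 4 members falling against 38.5% of all genes, the count is close to the background.

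bZIP44 had intensities of 95.7, 110.1, 69.7 and 92.1 at 0, 0.5, 2 and 4 h at 22 °C, with no steady direction. Its slope was −0.05 ± 0.07 (adjusted p = 0.490; 95% interval −0.20 to 0.09), and the value at 4 h was 96.2% of the start. Its log2 scatter about the 5 lines was 0.23, above that of 82.0% of genes, so a modest fall would be hard to see. IAA18 had 48.4, 50.4, 43.9 and 65.1, the last being the highest, and a slope of 0.09 ± 0.06 (adjusted p = 0.188). Without the 4 h array the slope of IAA18 was −0.08, so its sign rests on that array. When the slope at the 95th percentile of genes was taken as no decay in every series, all 4 members fell at 22 °C, bZIP19 at −0.77, WRKY20 at −0.68, bZIP44 at −0.33 and IAA18 at −0.18. That choice makes most slopes negative by construction, and 85.5% of all genes fell on it.

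In the cold none of the 4 transcripts passed for a fall or a rise over 12 h of cordycepin. Over the mean of the 4 cold slopes, 0 of 4 members were called in either direction by limma, against 37.8% of all genes. At an unadjusted p under 0.05 the count was 1 of 4, IAA18, against 3394 of all 6961 genes. bZIP19 had a mean cold slope of 0.016 ± 0.008 log2 per h and WRKY20 of 7.43e-05 ± 0.0079. IAA18 had 0.024 ± 0.010 (limma adjusted p = 0.0838) and bZIP44 −0.023 ± 0.012 (limma adjusted p = 0.126). Without the 6 h series' 12 h array IAA18 passed at 0.036, while bZIP44 had −0.0103. Without that series' 0 h array bZIP44 passed at −0.038, while IAA18 had 0.0125. The share of all genes passing without either array was not counted. On the scale where the 95th percentile stands for no decay, all 4 passed as falling in the cold, by 0.032 for bZIP19, 0.047 for WRKY20, 0.071 for bZIP44 and 0.024 for IAA18, against 92.9% of all genes. The sign of these slopes therefore depends on where no decay is set.

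The difference between temperatures was large for bZIP19 and WRKY20. The slope of bZIP19 was 0.51 ± 0.05 log2 per h less negative at 4 °C than at 22 °C (SE; limma adjusted p = 1.18e-06), and that of WRKY20 was 0.41 ± 0.05 less negative (adjusted p = 7.60e-06). Both SE again use the pooled scatter, which may be too small for the 22 °C line. Without the 22 °C array at 4 h the differences were 0.70 for bZIP19 and 0.64 for WRKY20, and centred on reference genes they were 0.48 for bZIP19 and 0.38 for WRKY20. All 4 of these values passed. Taken by cold series, the differences were 0.50 to 0.52 for bZIP19 and 0.39 to 0.42 for WRKY20. All of them subtract the same 22 °C line, which makes up most of each value, so their likeness is no separate support. These stood at or above the 97.5 percentile of all genes for bZIP19 and the 94.1 percentile for WRKY20. Members called less negative were 2 of 4, against 37.0% of all genes. bZIP44 differed by 0.03 ± 0.07 (adjusted p = 0.708; 95% interval −0.11 to 0.18) and IAA18 by −0.07 ± 0.06 (adjusted p = 0.340; 95% interval −0.20 to 0.06). With the 95th percentile taken as no decay, bZIP44 (0.26) and IAA18 (0.16) also passed as less negative in the cold, against 79.6% of all genes.

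Over the matched first 4 h of cordycepin the contrast can be read without a line. bZIP19 kept 104.6, 120.4, 112.1 and 94.99% of its starting intensity in the 6, 12, 24 and 36 h cold series, against 24.8% at 22 °C. WRKY20 kept 102.5, 111.1, 111.7 and 110.8% in the cold series, against 32.4% at 22 °C. For both genes every cold value lay above the 22 °C value, which came from the same pair of arrays each time. The share of all genes with this order was not counted, so the order is not set apart from the background. Over the same 4 h the median gene had a log2 change of −0.21 at 22 °C. In the 6, 12, 24 and 36 h cold series it had −0.04, 0.02, 0.04 and −0.02. At 22 °C the 4 h change stood at the 3.86 percentile of all genes for bZIP19 and the 8.00 percentile for WRKY20. In the cold series it stood at percentiles of 34.9 to 84.1 for bZIP19 and of 64.1 to 85.6 for WRKY20. For bZIP44 the cold values, 155.3, 85.6, 86.0 and 114.4%, lay on both sides of the 96.2% at 22 °C. IAA18 had 135.5, 133.5, 98.6 and 138.5% in the cold and 134.4% at 22 °C, again on both sides.

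**Figure D3:**
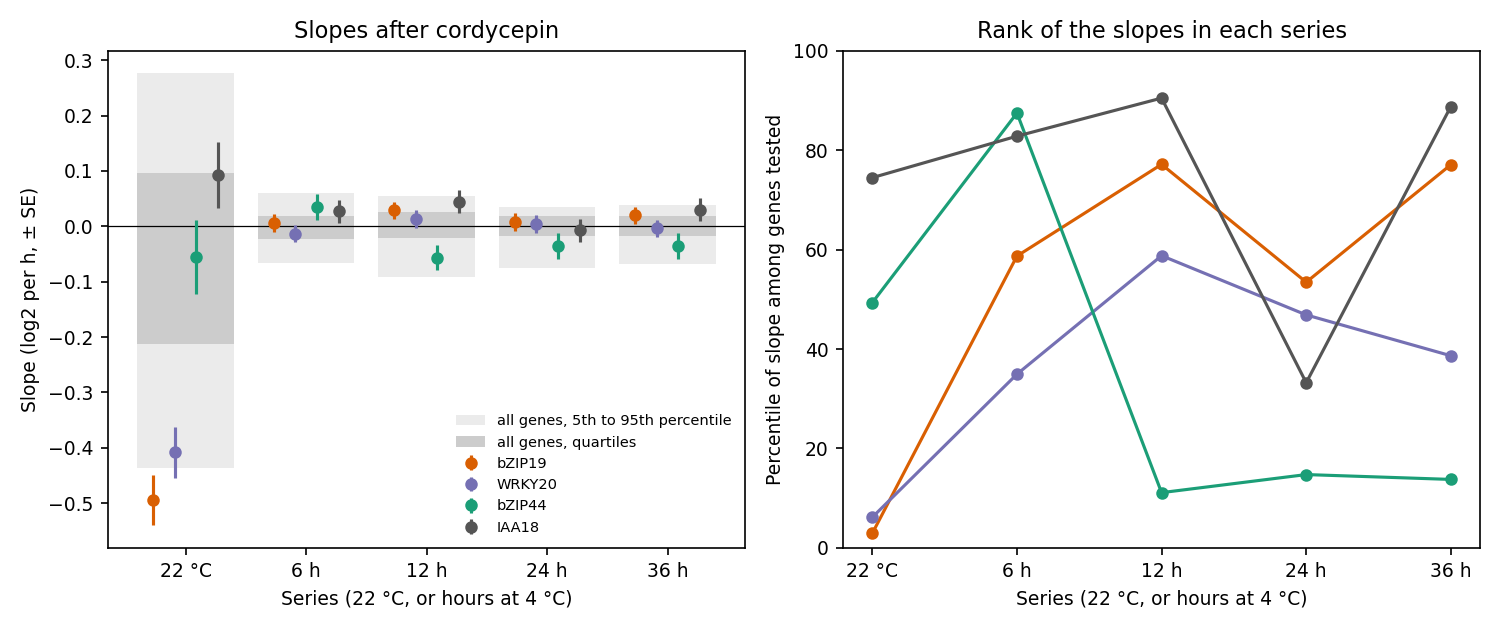
Left, slope after cordycepin in log2 per h (y axis; points with bars are members ± SE, shading is the spread of all 6961 genes) in each series (x axis). Right, the percentile of each member's slope among all genes in that series: bZIP19 moves to 53.4 or above in each cold series and WRKY20 to 34.9 or above, while bZIP44 lies at 87.5 in the 6 h series and at 14.7 or below in the later ones.

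Slopes spread far more widely at 22 °C than in the cold, with an interquartile range of 0.308 at 22 °C and of 0.0353 to 0.0477 in the cold series, so rank within a series was also compared. Rank does not move with the zero point or with the spread. bZIP19 stood at the 2.93 percentile at 22 °C and at the 58.7, 77.1, 53.4 and 77.1 percentiles after 6, 12, 24 and 36 h of cold. WRKY20 stood at 6.15 at 22 °C and at 34.9, 58.8, 46.9 and 38.6 in the cold. bZIP19 thus lay above the median gene in all 4 cold series and WRKY20 in 1 of the 4, while both were among the steepest falls at 22 °C. With slopes scaled to equal spread in every series, both differences still passed.

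bZIP44 held different ranks in the cold series. Its slope was 0.034 ± 0.023 log2 per h in the 6 h series, at the 87.5 percentile, and −0.056 ± 0.023, −0.036 ± 0.023 and −0.035 ± 0.023 in the 12, 24 and 36 h series, at the 11.1, 14.7 and 13.8 percentiles. In the 6 h series the intensity was 220.1, 342, 355 and 299 at 0, 4, 8 and 12 h of cordycepin, so the 3 arrays with cordycepin all lay above the one before it. In the 12 h series it was 405, 347, 340 and 242, and all 3 lay below. How many of all genes had either order was not counted. The F test for any difference among the 4 cold slopes did not pass for bZIP44 (limma adjusted p = 0.317), nor for the other 3. The count was thus 0 of 4, against 2.77% of all genes. At an unadjusted p under 0.05 it was also 0 of 4, against 1340 of all 6961 genes.

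IAA18 was brighter with cordycepin than before it in 3 of the 4 cold series. After 6 h of cold its intensity was 41.2, 55.8, 63.5 and 50.7 over 0, 4, 8 and 12 h of cordycepin, and after 36 h it was 78.3, 108.4, 97.1 and 107.0. Both series, and the 12 h one (55.8, 74.5, 76.0 and 83.7), had every array with cordycepin above the 0 h array. The 24 h series (86.0, 84.8, 76.0 and 83.5) had every one below it. The change over the first 4 h stood at the 92.1, 94.2, 33.5 and 99.1 percentiles of all genes in the 6, 12, 24 and 36 h series. Each rests on a single 0 h array, and without the 0 h arrays the mean cold slope of IAA18 was −0.000337. The share of all genes with every array above or below its 0 h array was not counted. No cold slope of IAA18 passed.

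At 2 points cells with and without cordycepin had spent the same time at 4 °C. After 24 h at 4 °C, bZIP44 was at 242 in cells with cordycepin for the last 12 h, against 355 in cells without it, a log2 difference of −0.55 at the 11.6 percentile of all genes. After 36 h it was at 272 with cordycepin, against 304 without it, a difference of −0.16 at the 29.7 percentile. bZIP44 had the largest of the 4 differences in size after 24 h, and bZIP19 after 36 h. After 24 h bZIP19, WRKY20 and IAA18 lay at −0.03, −0.02 and −0.04, and after 36 h at 0.21, 0.11 and 0.09. These are 1 array against 1 and were not tested.

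Most other tested bZIP and WRKY genes also fell at 22 °C and had less negative slopes in the cold. The annotation named 22 bZIP genes on the array, of which 11 were tested. The median 22 °C slope of the 11 was −0.26, against −0.05 for all genes, and 7 of the 9 besides the members fell, against 38.5% of all genes. Their slopes were less negative in the cold in 6 of these 9, against 37.0% of all genes, and the median difference over the 11 was 0.24, against 0.05 for all genes. BZIP53, the other tested gene of the network of C and S1 bZIP proteins, was like bZIP44 in not passing at 22 °C (−0.13) and fell in the cold (−0.11; limma adjusted p = 9.18e-04). Its level difference was 1.02 without passing. EEL, a bZIP factor known from seeds, had the most negative slope difference of the family, −0.10, without passing, and AT4G38900 had the lowest level difference, −0.70, without passing.

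**Figure D4:**
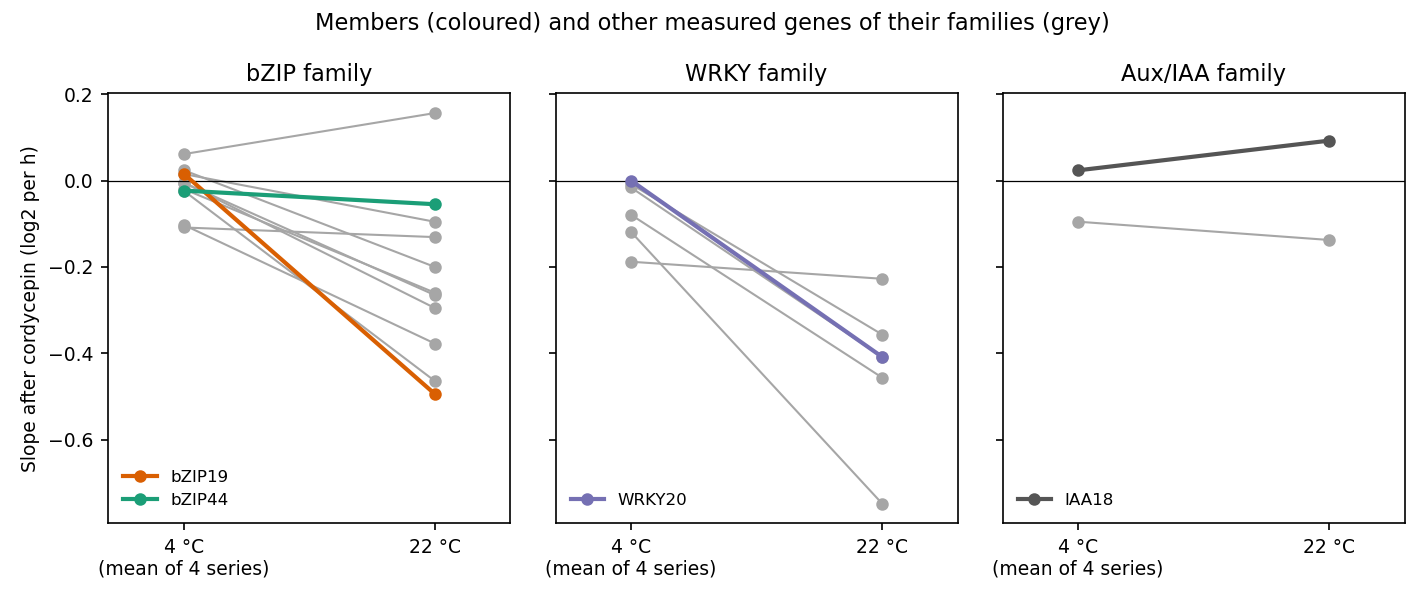
Slope after cordycepin in log2 per h (y axis) over the mean of the 4 cold series and at 22 °C (x axis), 1 line a gene, for the tested genes of the bZIP (11), WRKY (6) and Aux/IAA (2) families. Lines of bZIP19 and WRKY20 and of most grey genes drop toward 22 °C, and those of bZIP44 and IAA18 stay near 0.

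Of 7 WRKY genes named, 6 were tested. Besides WRKY20, 4 of 5 fell at 22 °C (38.5% of all genes) and 4 of 5 were less negative in the cold (37.0% of all genes), with a median difference over the 6 of 0.38. WRKY22, a factor of the immune response, had the largest difference, 0.63 ± 0.17, and fell in both temperatures, by 0.12 log2 per h in the cold and by 0.75 at 22 °C. WRKY53, a regulator of leaf senescence, had 0.04 ± 0.17, and fell in the cold by 0.19. ZAP1, the WRKY1 gene and the other tested member of group I, fell by 0.36 at 22 °C and had −0.01 in the cold, a difference of 0.35 ± 0.08 (limma adjusted p = 0.00238). In the cold 3 of the 5 other WRKY genes fell, against 16.2% of all genes, and WRKY20 did not pass.

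Of 7 Aux/IAA genes named, IAA18 and IAA29 were tested. IAA29 fell in the cold by 0.10 log2 per h (limma adjusted p = 0.0057), with a level difference of −0.31 that did not pass. The 5 other named Aux/IAA genes stayed at or below an intensity of 46.3 on every array. Of 13 genes listed for the bZIP19 subgroup and for zinc uptake, only 3 were named for a probe set of their own. Among these, BZIP24 and ZIP9, a zinc transporter gene, stayed at or below 33.7, and bZIP19 was the only one tested. The auxin receptors and response factors and the metabolic genes linked to bZIP44 are not named in the platform table and were not analysed here.

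The genes with the pattern most like each member were found by Pearson correlation of log2 intensity over the 20 arrays, which share the same 5 series. This is a description. bZIP19 was most like ATCES1, a ceramidase gene (r = 0.990), AT1G02330 (0.988) and AT2G03430 (0.985). WRKY20 was most like AT1G02330 (0.988), AT1G30890 (0.986) and AT1G15470 (0.980), and bZIP19 and WRKY20 had r = 0.977 with each other. For bZIP19, 381 genes had r above 0.9, and for WRKY20 389 did. bZIP44 was most like SRC2, a cold-linked membrane protein gene (0.980), AT3G47080 (0.9753) and AT1G78070 (0.965), whose levels in the cold differed from 22 °C by 2.41, 1.19 and 2.92 on the log2 scale. IAA18 had 6 genes above 0.9, led by AT1G18900 (0.927), AT4G36530 (0.915) and AT5G56350 (0.906).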

How the data were processed

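Total RNA of T87 cells was read on 20 arrays, 5 series of 4. The deposited values are probe set intensities on a linear scale, for which the submitters' processing notes name RMA and affy, with versions and any later scaling not given in the sources used here. log2 was taken of the deposited intensity. RMA scales arrays to one another, so total mRNA is not measured. Array means were close (300.2 to 311.8), while medians ran from 50.3 to 68.6. Precision is limited by how few arrays there are. The labels' growth protocol omits the 6 h cold treatment that titles and design text give. Probe sets with 1 gene in the platform table (13513 of 22810; 503 have several genes and 8794 none) were joined to TAIR10.1 by Entrez identifier (13436 matched). A probe set was kept if at least 2 arrays reached the table median, 61.4, and the brightest stood for its gene.

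Tests were fitted over 6961 genes with limma 3.58.1 in R 4.3.3 (lmFit, eBayes with trend), two-sided, with Benjamini-Hochberg adjustment and a threshold of 0.05. Levels before cordycepin had 3 residual degrees of freedom, cold duration 9 and slopes (1 intercept and 1 slope a series) 10. No condition has replicates, so errors are scatter about the model and not the spread between cultures. Tables and plots used Python 3.11.15, numpy 2.4.6, pandas 2.3.3 and matplotlib 3.10.9. The fits were run on simulated data with known changes. Recovery of most, not all, of these changes was required of the slope and duration tests, but not of the test of level before cordycepin. No limit was set on false calls. The members, lists and tests were chosen with earlier results of these data known. The genes named are the members, the 3 genes most correlated with each, and the extremes of each list in slope and level difference. Alternatives were no filter, no variance trend, a mean over probe sets, centring on 7 reference genes, intercepts, a trend over the arrays before cordycepin, anchored and scaled slopes, no 0 h arrays, changes between times and each array left out.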

Additional observations from a re-analysis of the deposited data

Results flagged for a closer look

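The slope of bZIP19 after cordycepin was 0.51 log2 per h less negative at 4 °C than at 22 °C, and the test of this difference between temperatures passed. The slope of WRKY20 was 0.41 less negative at 4 °C by the same test. No group held enough arrays to look for an outlying one.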

How the results depend on the processing

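The slope differences of bZIP19 and WRKY20 passed under every alternative that carries a test, from 0.45 to 0.74 log2 per h for bZIP19 and from 0.34 to 0.64 for WRKY20, besides the scaled slopes, which have another unit. Some alternatives could not move these estimates. No filter, no variance trend and a mean over probe sets returned the same 0.51 and 0.41. Leaving out a cold array left the 22 °C line, most of each difference, as it was. The number of members called was 3 for the cold level from intercepts (25.2% of all genes), 0 for cold duration on the arrays before cordycepin (0%), and with anchored slopes 4 each for the 22 °C slope (85.5%), the cold slope (92.9%) and their difference (79.6%). With 1 array left out it ranged from 0 to 1 for the cold level, with 1.11% of all genes called higher without the 6 h array. It also ranged from 0 to 1 for the cold slope, where the share of all genes was not counted. Signs turned in the following fits. Centring on reference genes gave WRKY20 a cold slope of −0.0106 and trends among cold slopes of −0.00413 for bZIP19 and −0.00592 for WRKY20. The trend before cordycepin gave bZIP44 0.19. Anchoring gave IAA18 a 22 °C slope of −0.18, cold slopes of −0.0317 for bZIP19, −0.0238 for IAA18 and −0.0473 for WRKY20, and for IAA18 a slope difference of 0.16 and a trend of 0.00793. Scaling gave WRKY20 a cold slope of −0.0102 and slope differences of −0.40 for bZIP44 and 0.26 for IAA18. Without the 0 h arrays the cold slopes were −0.000337 for IAA18 and −0.0136 for WRKY20, and the trends 0.00101 for IAA18 and −0.00170 for WRKY20. With 1 array left out, IAA18 ranged from −0.0848 to 0.115 in 22 °C slope and from −0.0915 to 0.108 in slope difference, bZIP44 from −0.00940 to 0.255 in slope difference and from −0.295 to 0.0482 over cold duration, and WRKY20 from −0.00429 to 0.00505 in cold slope. Trends ranged from −0.0111 to 0.0151 for bZIP19, −0.0666 to 0.000669 for bZIP44, −0.0420 to 0.0162 for IAA18 and −0.0116 to 0.0100 for WRKY20. Changes between single arrays, which carry no test, also turned signs: over the first 4 h bZIP44 had a mean cold change of 0.0242 per h and bZIP19 a trend of −0.0381, and at 22 °C bZIP44 had 0.40 per h up to 0.5 h and 0.20 from 2 to 4 h, and IAA18 −0.13 from 0.5 to 2 h. The cause was not tested. IAA18 is dim, which limits what its values can show.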
